A study of Mus musculus with 12 samples.

Results

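The Hox gene clusters were examined in the ATAC-seq peak lists of mouse embryonic stem cells (ESCs), through 38 Hox genes out of the 21755 protein-coding genes on chromosomes 1 to 19 and X. The members were the Hox genes named in a fixed list, 10 in HoxA, 10 in HoxB, 9 in HoxC and 9 in HoxD, and one further gene of the family was not analysed here. The readouts taken for each library were peak summits within 1 kb of an annotated transcript start of a member and all summits between the first and the last member of a cluster. ATAC-seq marks open DNA by the insertion of sequencing adapters by a transposase. The libraries came from a WT line and from a Suv39h dn line, which lacks the H3K9 methyltransferases Suv39h1 and Suv39h2, each grown with leukaemia inhibitory factor. ATAC-seq was run on asynchronous cells of both lines, on mitotic cells arrested for 6 h with demecolcine (0.1 μg/ml), a microtubule drug, and on mitotic chromosomes that were released from such cells in a polyamine buffer and flow sorted, with 2 libraries per group and 12 in all. Each genotype is 1 line and no source separates the replicates by culture, so all p-values measure the spread between libraries, which may be technical. The chromosome preparation differs from mitotic cells in release, staining, sorting and input, and these cannot be told apart from the state of the chromatin.

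Hox genes encode homeodomain transcription factors that give cells their position along the body axis. They lie in clusters whose gene order follows the order of expression along that axis, from anterior paralogue groups to posterior ones. In ESCs, which precede axis formation, the clusters are known to be held silent by Polycomb complexes. The labelled cell type was checked against marker genes. Between 5 and 8 of 10 ESC markers had a promoter summit in the asynchronous libraries, 0 to 3 in mitotic cells and 3 to 8 in chromosomes. Of 8 fibroblast markers the numbers were 0 to 1, 0 and 1 to 2. As mean shares in the same order, ESC markers had 65%, 20% and 50%, and fibroblast markers 6.25%, 0% and 18.75%. All coding genes had 42.9%, 18.6% and 43.6%. The ESC markers were near the share of all genes in mitotic cells, so the check rests mainly on asynchronous cells. The ESC markers varied, with Zfp42 in 10 and Sox2 in 9 of 12 libraries but Dppa4 in 3, Nanog in 2 and Tdgf1 in 1. Of the fibroblast markers, Col1a2 had a summit in 6 libraries and Twist1 in 2, and the other 6, among them Col1a1 and Col3a1, in 0.

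The lists differed in length, from 22344 to 80602 peaks in asynchronous cells, 1746 to 14328 in mitotic cells and 44885 to 67027 in chromosomes. Their lowest local background, a measure of relative depth recovered from the fold and the p-value, ran from 0.149 to 0.328 fragments. At the 102 summits near Hox starts, between 3 and 19 fragments overlapped the summit, with a median of 7. A gene without a summit is therefore a gene at which no peak was called at this depth.

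The regions of each cluster called in most libraries outside untranslated regions are shown first, because they are where the clusters were most often open. Letters are from the GRCm38 reference, which mm10 names, 5′ to 3′ on the strand of the Hox genes, and the capitals mark CG dinucleotides. The HoxA stretch is the coding part of a region in a Hoxa3 coding exon, chr6:52172581-52172649 on the minus strand. The HoxB stretch is in an intron of the long non-coding RNA gene Gm53, chr11:96251736-96251934 on the plus strand. The 2 HoxC stretches flank the start of Hoxc13, upstream at chr15:102920656-102920955 and in a coding exon at chr15:102921586-102921878, both on the plus strand. The second of these was added after its values were seen, to set the sequences on either side of 1 start beside each other. The HoxD stretch is coding sequence of Hoxd1, chr2:74763102-74763247 on the plus strand.
HoxA, Hoxa3 coding exon: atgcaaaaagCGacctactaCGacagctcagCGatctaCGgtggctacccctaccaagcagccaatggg
HoxB, Gm53 intron: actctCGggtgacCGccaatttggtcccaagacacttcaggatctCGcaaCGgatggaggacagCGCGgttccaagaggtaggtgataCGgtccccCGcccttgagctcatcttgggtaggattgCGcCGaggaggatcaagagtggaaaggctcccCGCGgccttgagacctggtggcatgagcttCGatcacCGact
HoxC, upstream of Hoxc13: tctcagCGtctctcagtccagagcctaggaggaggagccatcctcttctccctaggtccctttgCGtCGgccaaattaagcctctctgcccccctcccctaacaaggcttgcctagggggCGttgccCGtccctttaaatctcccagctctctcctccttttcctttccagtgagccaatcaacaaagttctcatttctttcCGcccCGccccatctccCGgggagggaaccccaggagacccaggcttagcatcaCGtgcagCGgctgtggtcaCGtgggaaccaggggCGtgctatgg
HoxC, Hoxc13 coding exon: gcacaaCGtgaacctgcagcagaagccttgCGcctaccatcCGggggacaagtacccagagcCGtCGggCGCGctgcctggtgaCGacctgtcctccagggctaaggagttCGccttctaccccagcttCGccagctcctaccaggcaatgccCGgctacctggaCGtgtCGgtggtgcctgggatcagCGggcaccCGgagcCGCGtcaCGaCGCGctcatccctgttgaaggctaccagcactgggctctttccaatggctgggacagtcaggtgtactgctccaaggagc
HoxD, Hoxd1 coding exon: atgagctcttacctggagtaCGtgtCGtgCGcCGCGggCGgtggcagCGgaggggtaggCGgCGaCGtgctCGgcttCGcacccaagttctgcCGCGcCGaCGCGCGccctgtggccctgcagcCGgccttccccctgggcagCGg
These held 5.80, 7.04, 4.00, 6.83 and 13.7 CG dinucleotides per 100 bp in that order, and 55.1%, 59.3%, 59.3%, 64.2% and 73.3% G and C. The stretch upstream of Hoxc13, called in 4 asynchronous, 2 mitotic and 1 chromosome library, was the poorest in CG of the 5. The Hoxd1 stretch, called in chromosomes alone, was the richest. Over all cluster summits the median number of CG dinucleotides within 100 bp was nearly level, 10.5 in asynchronous cells and 11 in chromosomes. None of the 5 held the CTCF core motif, the YY1 motif AAGATGGC or the Hox-Pbx motif TGATNNAT on either strand.

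Hox promoters had a summit less often than promoters at large in asynchronous and mitotic cells, and in chromosomes 3 of 4 libraries were also below the share of all genes. In asynchronous cells 3 and 10 of 38 members had a summit in the WT libraries, against 2 and 6 for Suv39h dn. In mitotic cells the counts were 0 and 1 for WT, 0 and 2 for Suv39h dn. In chromosomes they were 9 and 17 for WT, 12 and 18 for Suv39h dn. In such bulk samples, fewer cells with an open site and fewer insertions per cell cannot be told apart. The counts of chromosomes did not overlap those of mitotic cells, and the lowest of them lay 1 below the highest of asynchronous cells. As shares of members, the means were 13.8% ± 9.46 (SD, n = 4) in asynchronous cells, 1.97% ± 2.52 (SD, n = 4) in mitotic cells and 36.8% ± 11.2 (SD, n = 4) in chromosomes. All protein-coding genes measured the same way gave 42.9% ± 13.1, 18.6% ± 11.3 and 43.6% ± 5.74 (SD, n = 4 each). The Hox share was below that of all genes in each of the 8 libraries of cells, by −40.1 to −3.63 percentage points, while in chromosomes the difference ran from −13.8 to 4.81 percentage points. The Hox share was 23.0 percentage points higher in chromosomes than in asynchronous cells, while the share of all genes was nearly level, and the difference was 22.3 percentage points after that share was taken off. Against mitotic cells the difference was 34.9 percentage points, of which 9.80 remained after the share of all genes was taken off.

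**Figure D1:**
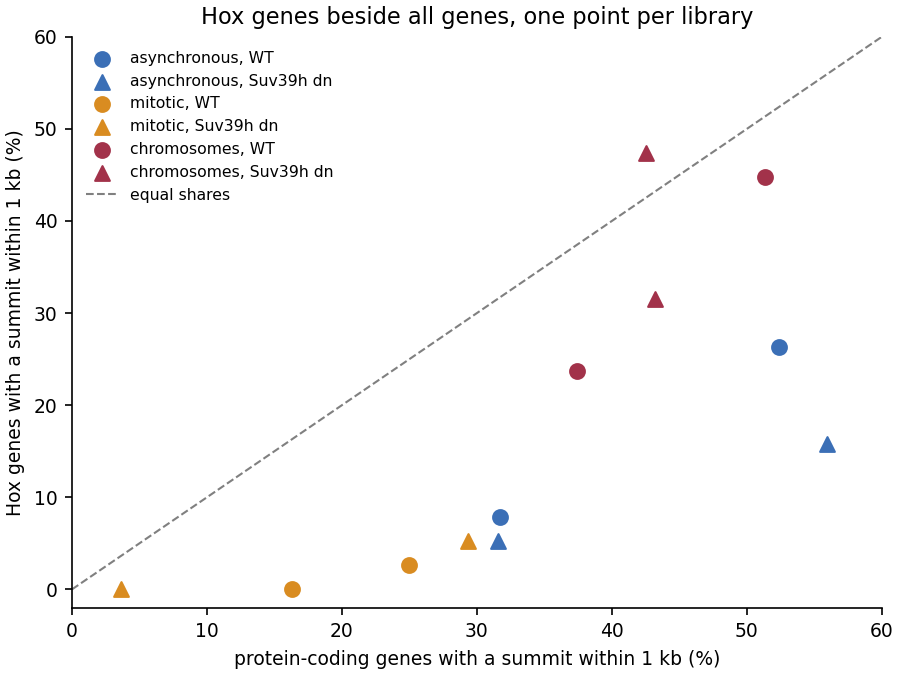
Share of the 38 Hox genes with a summit within 1 kb of a start (y, %) against the share of all protein-coding genes (x, %), with 1 point per library, circles for WT and triangles for Suv39h dn. The 8 libraries of cells lie below the line of equal shares and 1 of the 4 chromosome libraries lies above it.

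Over the 12 libraries, 27 members had a summit at least once, 2 in mitotic cells, 11 in asynchronous cells and 25 in chromosomes. Of all coding genes, 37.3%, 61.3% and 65.5% had one in some library of these preparations. The median member was called in 1.5 libraries and the median protein-coding gene in 4. Of the members, 28.9% were called in none, beside 24.9% of all genes, and 2.63% in at least 10, beside 10.1% of all genes. The 11 members with no summit were Hoxa2, Hoxa3, Hoxa4, Hoxa6, Hoxa9, Hoxa11, Hoxb3, Hoxb5, Hoxb6, Hoxb8 and Hoxd8. Of these, 6 lie in HoxA, 4 in HoxB, 1 in HoxD and 0 in HoxC.

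**Figure D2:**
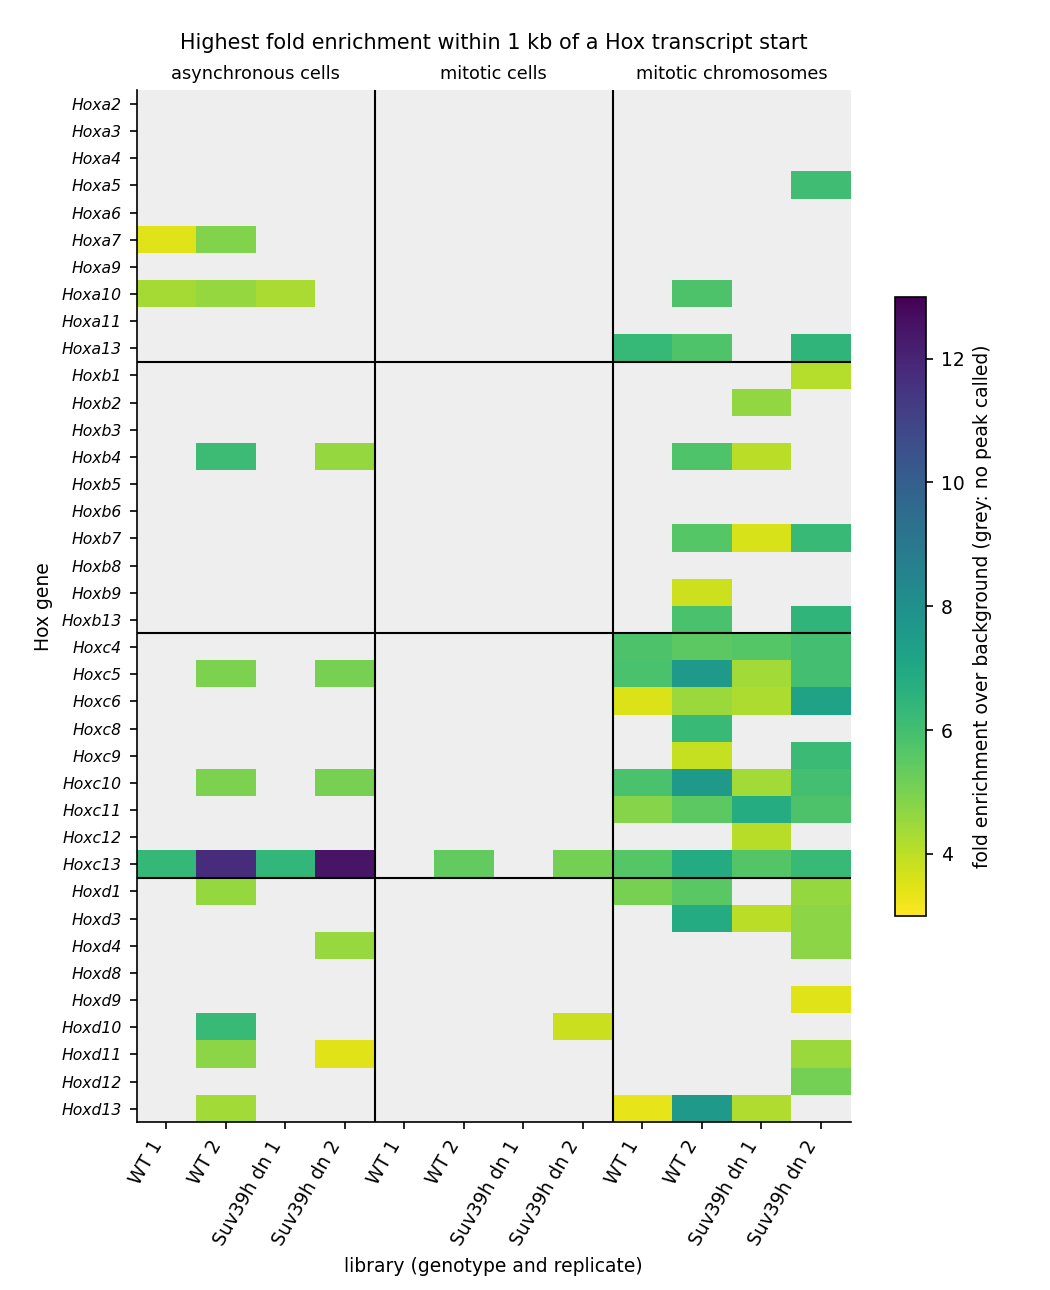
Highest fold enrichment of a peak within 1 kb of a start, by Hox gene (y) and library (x), with grey where no peak was called and lines between clusters and preparations. Most HoxC genes are called in each chromosome column, Hoxc13 alone is called across the asynchronous columns, and the mitotic columns hold 3 calls.

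By cluster, HoxC had the most calls in chromosomes. There 6 and 8 of its 9 members had a summit in the libraries of WT, against 7 and 7 for Suv39h dn, and 6 were called in all 4. These were the only ones of the 38 members called in all 4, beside 4635 of the 21755 coding genes. Hoxc5 and Hoxc10 among them share peaks. In HoxA, 1 and 2 of 10 members were called in WT chromosomes, with 0 and 2 for Suv39h dn. In HoxB the numbers were 0 and 4 of 10 for WT, 3 and 3 for Suv39h dn. In HoxD they were 2 and 3 of 9 for WT, 2 and 6 for Suv39h dn. No library of another cluster reached the lowest count of HoxC except the second Suv39h dn library of HoxD, which equalled it. In asynchronous cells the clusters were closer, with 0 to 2 members called in HoxA, 0 to 1 in HoxB, 1 to 3 in HoxC and 0 to 4 in HoxD. By paralogue group, 4 of 7 anterior members (groups 1 to 3) had a summit in some chromosome library, 8 of 15 central members (groups 4 to 8) and 13 of 16 posterior members (groups 9 to 13). In asynchronous cells the numbers were 1, 4 and 6, and in mitotic cells both members called, Hoxc13 and Hoxd10, were posterior. Of all coding genes, 65.5% had a summit in some chromosome library, 61.3% in some asynchronous one and 37.3% in some mitotic one. The members called in all 4 chromosome libraries were 0 anterior, 3 central and 3 posterior. HoxC has no anterior member, so class and cluster cannot be told apart here.

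Hoxc13, a posterior HOX gene known for its part in hair and nail formation, was the most often open member and the only one called in at least 10 libraries. Its highest fold enrichment, the pileup plus 1 over the local background plus 1, was 6.33 and 11.7 in WT asynchronous cells and 6.36 and 12.5 in Suv39h dn asynchronous cells. In mitotic cells the second library of each genotype had a peak, with a fold of 5.41 for WT, 5.08 for Suv39h dn, and the first libraries had none. In chromosomes the folds were 5.63 and 6.84 for WT, 5.69 and 6.20 for Suv39h dn. The genotypes overlapped in asynchronous cells and chromosomes, and in both genotypes the second asynchronous library, the longer list, gave the higher value. The peaks behind these values were not at the same place. In all 6 libraries of cells that had a peak, the summit lay upstream of the start, at positions −333 to −203 bp, in the CG-poorer stretch shown above (whole region chr15:102920656-102921011). In chromosomes all 4 libraries had a summit between 352 and 714 bp downstream, in or beside the coding stretch, and 1 library, the second of WT, also had one upstream, at −148 bp. The upstream region was called in 7 libraries, 4 asynchronous, 2 mitotic and 1 of chromosomes, and the coding region (chr15:102921523-102921878) in 4, all of chromosomes.

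The other members of HoxC were called mainly in chromosomes. Hoxc4, Hoxc6 and Hoxc11 had a summit in 4 of 4 chromosome libraries and in 0 of 4 asynchronous ones, which is 3 of 38 members where 2.2% of all genes met the same rule. The opposite pattern, 4 of 4 asynchronous and 0 of 4 chromosomes, was met by 0 members and 2.35% of all genes. The folds of Hoxc4, a central gene at the end of the cluster, were 5.79 and 5.54 in WT chromosomes and 5.64 and 5.97 in Suv39h dn chromosomes. Those of Hoxc11, a posterior gene, were 4.81 and 5.51 for WT, 6.80 and 5.81 for Suv39h dn. Those of Hoxc6 were 3.53 and 4.51 for WT, 4.23 and 7.24 for Suv39h dn. The genotypes overlapped for Hoxc4 and Hoxc6, while both Suv39h dn values of Hoxc11 lay above both WT values, as for 13.8% of the 4635 genes called in all 4 chromosome libraries, and came from other peaks of the gene, 392 and 235 bp downstream against 749 and 776 bp. The summits of Hoxc6 lay at places from −859 to 852 bp of its annotated starts, those of Hoxc11 lay 170 to 776 bp downstream, and Hoxc4 had 1 summit between 472 and 542 bp downstream in each library. With only starts of protein-coding transcripts, Hoxc6 lost its call, and within 500 bp of a start Hoxc4 and Hoxc6 did. With equal list lengths within preparations the rule was met by Hoxc4, Hoxc5, Hoxc10 and Hoxc11, and by 5.05% of all genes. At q at or under 1e-05, where q is the adjusted p-value of a peak, 0 members met the rule.
Against mitotic cells, Hoxc4, Hoxc5, Hoxc6, Hoxc10 and Hoxc11 were in 4 of 4 chromosome libraries and in 0 of 4 mitotic ones. This is 13.2% of the members, beside 7.84% of all genes. With equal list lengths within preparations it was again 13.2%, with Hoxc13 in place of Hoxc6, beside 13.9% of all genes. Hoxc5, a central gene, and Hoxc10, a posterior one, share the peaks, because a non-coding transcript of Hoxc5 starts close to the start of Hoxc10, and in 4 chromosome and 2 asynchronous libraries 1 summit or more served both. Their common folds were 5.87 and 7.59 in WT chromosomes, 4.40 and 5.97 in Suv39h dn chromosomes, and 4.99 and 5.03 in the second asynchronous libraries of WT and Suv39h dn. No member was in 4 of 4 mitotic and 0 of 4 chromosome libraries (0.124% of all genes), in 4 of 4 asynchronous and 0 of 4 mitotic libraries (2.09% of all genes), or in 4 of 4 mitotic and 0 of 4 asynchronous ones (0% of all genes).

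In the other clusters the members called in most libraries each had 4. Hoxa10, a posterior gene with roles in the uterus and limb, had folds of 4.35 and 4.59 in WT asynchronous cells, 4.27 in the first Suv39h dn asynchronous library and 5.81 in the second WT chromosome library, the last at another of its starts. Hoxb4, known in blood stem cells, had 6.13 and 4.60 in the second asynchronous libraries of WT and Suv39h dn, 358 and 388 bp downstream of its start. In chromosomes it had 5.76 in the second WT library and 4.03 in the first Suv39h dn library, within 35 bp of the start. Hoxd1, an anterior gene, had 4.59 in the second WT asynchronous library, 53 bp upstream, and in chromosomes 5.05 and 5.54 in WT and 4.59 in the second Suv39h dn library. Hoxd13, the limb gene at the other end of HoxD, was also called in 4 libraries, with 4.39 in the second WT asynchronous library, 3.37 and 7.64 in WT chromosomes and 4.17 in the first Suv39h dn chromosome library. Hoxd10, another posterior gene, was called in the second WT asynchronous library with a fold of 6.25 and in the second Suv39h dn mitotic library with 3.79, at −154 and −177 bp from its start, and in 0 chromosome libraries. For each of the first 4 genes the summits of cells and of chromosomes lay at different places.

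Few members differed between the genotypes. Hoxa7, a central gene, was the only member with a summit in both WT and neither Suv39h dn library of any preparation, in asynchronous cells, where 0.478% of all genes met this rule. Its folds were 3.47 and 4.89, resting on 3 and 6 fragments, and the summits lay at different starts of the gene about 4.29 kb apart. The call was lost at q at or under 1e-05 and with lists of equal length. No member had a summit in both Suv39h dn and neither WT asynchronous library, as 0.791% of all genes did. In mitotic cells 0 members were called in either direction, beside 1.03% of all genes in both WT and neither Suv39h dn and 0.253% in the opposite direction. In chromosomes 0 members were called in either direction, beside 2.45% and 1.65% of all genes. The mean difference in the share of members with a summit over the 3 preparations, Suv39h dn minus WT, was 0 percentage points, made of −6.58 in asynchronous cells, 1.32 in mitotic cells and 5.26 in chromosomes. In each preparation the counts of the genotypes overlapped.

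The 4 clusters span 485 kb of mm10 or 0.0184% of the chromosomes analysed. HoxA lies at chr6:52162417-52260880, HoxB at chr11:96194316-96368256, HoxC at chr15:102921103-103036852 and HoxD at chr2:74668310-74765142. HoxA is counted here from Hoxa2 to Hoxa13, and the region upstream of Hoxc13 lies just outside HoxC so counted. The lists held 6 and 16 summits inside the clusters in WT asynchronous cells and 3 and 13 in Suv39h dn ones. In mitotic cells the numbers were 0 and 0 for WT, 0 and 3 for Suv39h dn, and in chromosomes 22 and 47 for WT, 28 and 35 for Suv39h dn. Set against the length of the lists, this was 2.08 ± 0.796 per 10000 peaks in asynchronous cells, 0.523 ± 1.05 in mitotic cells and 6.07 ± 1.58 in chromosomes (SD, n = 4 each). The lowest chromosome library, at 4.71, was above the highest asynchronous one, at 2.81, and the highest mitotic one, at 2.09. Per base, the clusters held 1.13 ± 0.432 times the summits of the genome in asynchronous cells, 0.285 ± 0.570 times in mitotic cells and 3.34 ± 0.860 times in chromosomes (SD, n = 4 each). Of the bases of the clusters, 25.5% lay within 1 kb of a coding-gene start, beside 3.70% of the chromosomes analysed. The ratios do not take this difference off, so they do not compare like with like.

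HoxC held the most summits in 3 of 4 chromosome libraries, and HoxB in the first WT one. Inside HoxC there were 0 and 2 summits in WT asynchronous cells, 0 and 3 in Suv39h dn asynchronous cells, 0 in each mitotic library, 8 and 23 in WT chromosomes and 13 and 14 in Suv39h dn chromosomes. Per 10000 peaks HoxC had 0.181 ± 0.209 in asynchronous cells and 2.62 ± 0.795 in chromosomes (SD, n = 4 each), without overlap. HoxB had 2 and 5 summits in WT asynchronous cells, 1 and 5 in Suv39h dn ones, 1 in a single mitotic library, and in chromosomes 9 and 13 for WT, 8 and 10 for Suv39h dn.
Per 10000 peaks HoxB went from 0.698 ± 0.236 in asynchronous cells to 1.86 ± 0.371 in chromosomes (SD, n = 4 each), again without overlap. HoxD had 0 and 6 in WT asynchronous cells, 0 and 4 in Suv39h dn ones, 2 and 8 in WT chromosomes and 4 and 9 in Suv39h dn ones, and its values overlapped. HoxA showed no such difference, with 4 and 3 summits in WT asynchronous cells, 2 and 1 in Suv39h dn ones and 3, 3, 3 and 2 in the chromosome libraries. Per 10000 peaks HoxA had 0.810 ± 0.710 in asynchronous cells and 0.511 ± 0.0947 in chromosomes (SD, n = 4 each).

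**Figure D3:**
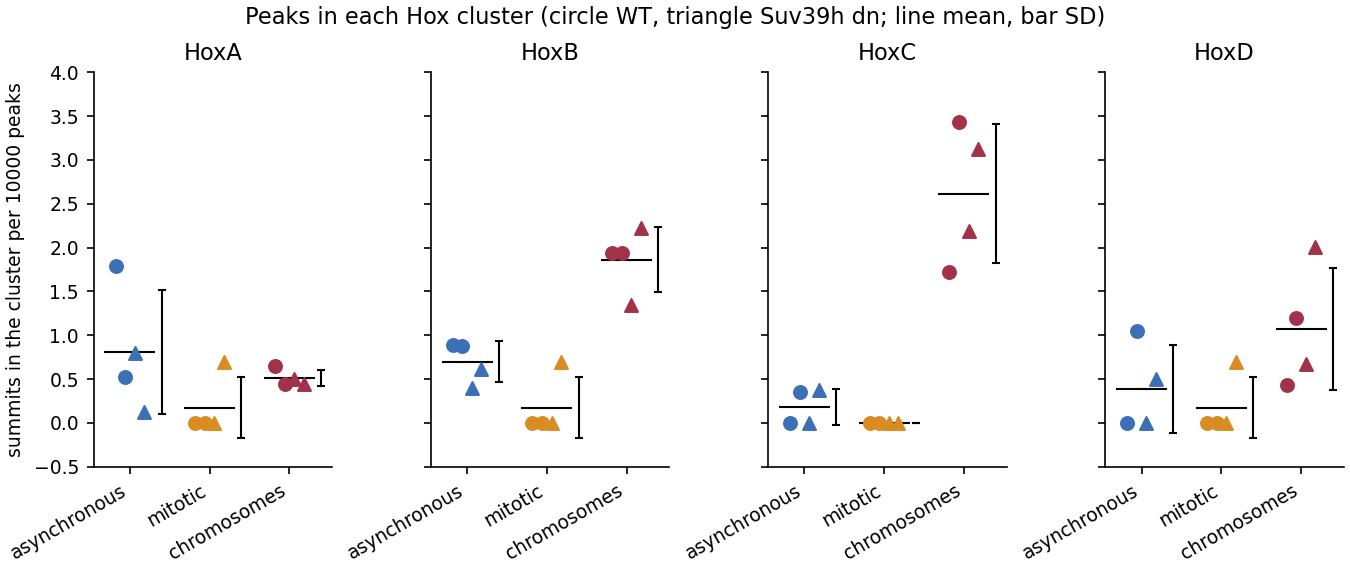
Summits inside each cluster per 10000 peaks of the list (y) by preparation (x), with 1 point per library, circles for WT and triangles for Suv39h dn, a line at the mean of 4 libraries and a bar for the SD. In HoxB and HoxC all chromosome libraries lie above all cell libraries, in HoxA and HoxD they overlap.

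An exact two-sided permutation test over libraries was run on the clusters together with all 100 kb windows of the genome that held at least 5 summits, 20292 features in all, with Benjamini-Hochberg adjustment over the whole table. For chromosomes minus asynchronous cells the difference was 2.43 per 10000 peaks in HoxC and 1.17 in HoxB, each with an exact permutation p = 0.0286, the smallest that 4 against 4 libraries can give, and an adjusted p of 0.124, the lowest of any feature. HoxD differed by 0.69 (exact permutation p = 0.143, adjusted p = 0.301) and HoxA by −0.30 (exact permutation p = 0.571, adjusted p = 0.725). With equal list lengths within preparations HoxD too had an exact permutation p of 0.0286 (adjusted p = 0.0836), without overlap. In that setting asynchronous lists held 22344 peaks and chromosome lists 44885, so lengths still differed between the preparations. No feature passed the adjusted threshold, while 10.6% were higher and 12.4% lower at an unadjusted p under 0.05, so that reaching this p was common among windows. With 4 against 4 libraries, a feature can pass after adjustment only if most features reach the smallest p. The adjusted test could therefore not single out a cluster, whatever its difference. In size, a difference of at least that of HoxC was found in 0.0739% of the features, and of at least that of HoxB in 0.907%. The windows were not matched to the clusters for bases near gene starts. The clusters also differ from the windows in length, which counts per list do not take off. Scaled to 100 kb, a setting chosen after seeing the data, the differences were 2.10 in HoxC and 0.67 in HoxB, reached by 0.0986% and 5.08% of the windows. Without either Suv39h dn asynchronous library only HoxC kept an unadjusted p under 0.05. With clusters extended by 10 kb on either side, which takes in the region upstream of Hoxc13, the differences were 2.22 in HoxC and 1.00 in HoxB. With all 8 lists of asynchronous cells and chromosomes shortened to their 22344 strongest peaks, a setting chosen after seeing the data, HoxC held 0, 1, 0 and 0 summits in asynchronous cells and 5, 11, 6 and 6 in chromosomes. HoxB then held 2, 0, 1 and 1 in asynchronous cells and 5, 5, 0 and 6 in chromosomes, so that its values overlapped. HoxD held 0, 0, 0 and 0 in asynchronous cells and 1, 4, 0 and 3 in chromosomes, and overlapped too. Members with a summit numbered 3, 1, 2 and 1 in asynchronous cells and 7, 14, 3 and 12 in chromosomes, where the first Suv39h dn library equalled the first WT asynchronous one. Of all genes, 29.8% to 32.7% had a summit in asynchronous cells and 24.5% to 29.6% in chromosomes. Over all alternatives the adjusted p of this comparison ran from 0.0836 to 0.341 in HoxC and from 0.0836 to 0.605 in HoxB.
For chromosomes minus mitotic cells the difference was 2.62 in HoxC and 1.69 in HoxB (exact permutation p = 0.0286, adjusted p = 0.112 for both), 0.90 in HoxD (p = 0.0857, adjusted p = 0.298) and 0.34 in HoxA (p = 0.143, adjusted p = 0.305), with 22.9% of the features higher and 2.7% lower at the unadjusted threshold. For asynchronous minus mitotic cells no cluster reached it, with differences from 0.18 in HoxC to 0.64 in HoxA and adjusted p-values from 0.458 to 1, beside 8.74% of the features higher and 2.02% lower. The 3 preparations were compared in pairs that share libraries.

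Between the genotypes, no cluster passed the test. Over the 3 preparations the difference of Suv39h dn minus WT was −0.14 per 10000 peaks in HoxA, −0.06 in HoxB, 0.03 in HoxC and 0.20 in HoxD, with exact permutation p-values from 0.583 to 0.833 and an adjusted p of 1 for each. Of all features, 0.35% were higher and 1.44% lower at an unadjusted p under 0.05, and 0 of 20292 passed the adjusted threshold. The smallest possible exact permutation p here was 0.00926, so a few features alone could not pass after adjustment. For the 4 clusters together the difference was 0.03, within which asynchronous cells stood at −1.34, with both Suv39h dn libraries (1.20 and 1.61) below both WT libraries (2.69 and 2.81). Mitotic cells stood at 1.05 and chromosomes at 0.37, both with overlap between the genotypes. With 2 libraries of each genotype a single preparation cannot give an exact permutation p under 0.333.

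Few regions were called in both cells and chromosomes. Overlapping peaks of the 12 libraries were merged into 122 regions in or beside the clusters. Of these, 23.8% were called in cells alone, 74.6% in chromosomes alone and 1.64% in both, beside 36.0%, 56.1% and 7.88% of the 231395 regions of the whole genome. Of the 39 regions called in at least 2 libraries, 25.6% were found in cells alone, 69.2% in chromosomes alone and 5.13% in both, beside 45.1%, 33.7% and 21.2% of such regions in the genome. HoxC held 16 of the 27 regions that repeated in chromosomes alone. The other leading regions were in part coding exons as well. In HoxA these were the Hoxa3 exon shown above, called in 2 asynchronous and 1 mitotic library, an intronic region at chr6:52177396-52177543 in 3 chromosome libraries, and an untranslated region of Hoxa10 in 3 asynchronous libraries. In HoxB the Gm53 intron was called in 4 of 4 chromosome libraries, with folds of 6.05 and 4.84 for WT, 4.22 and 5.49 for Suv39h dn, and a Hoxb7 coding exon (chr11:96286987-96287230) in 3. A Hoxb3 coding exon (chr11:96346261-96346390) was called in 2 chromosome libraries. In HoxC the third region was a Hoxc4 coding exon (chr15:103034858-103035028), called in 4 chromosome libraries. In HoxD the Hoxd1 exon was called in 3 chromosome libraries, a Hoxd13 exon (chr2:74668836-74669032) in 2 and a stretch upstream of Hoxd12 (chr2:74673932-74674096) in 2.

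**Figure D4:**
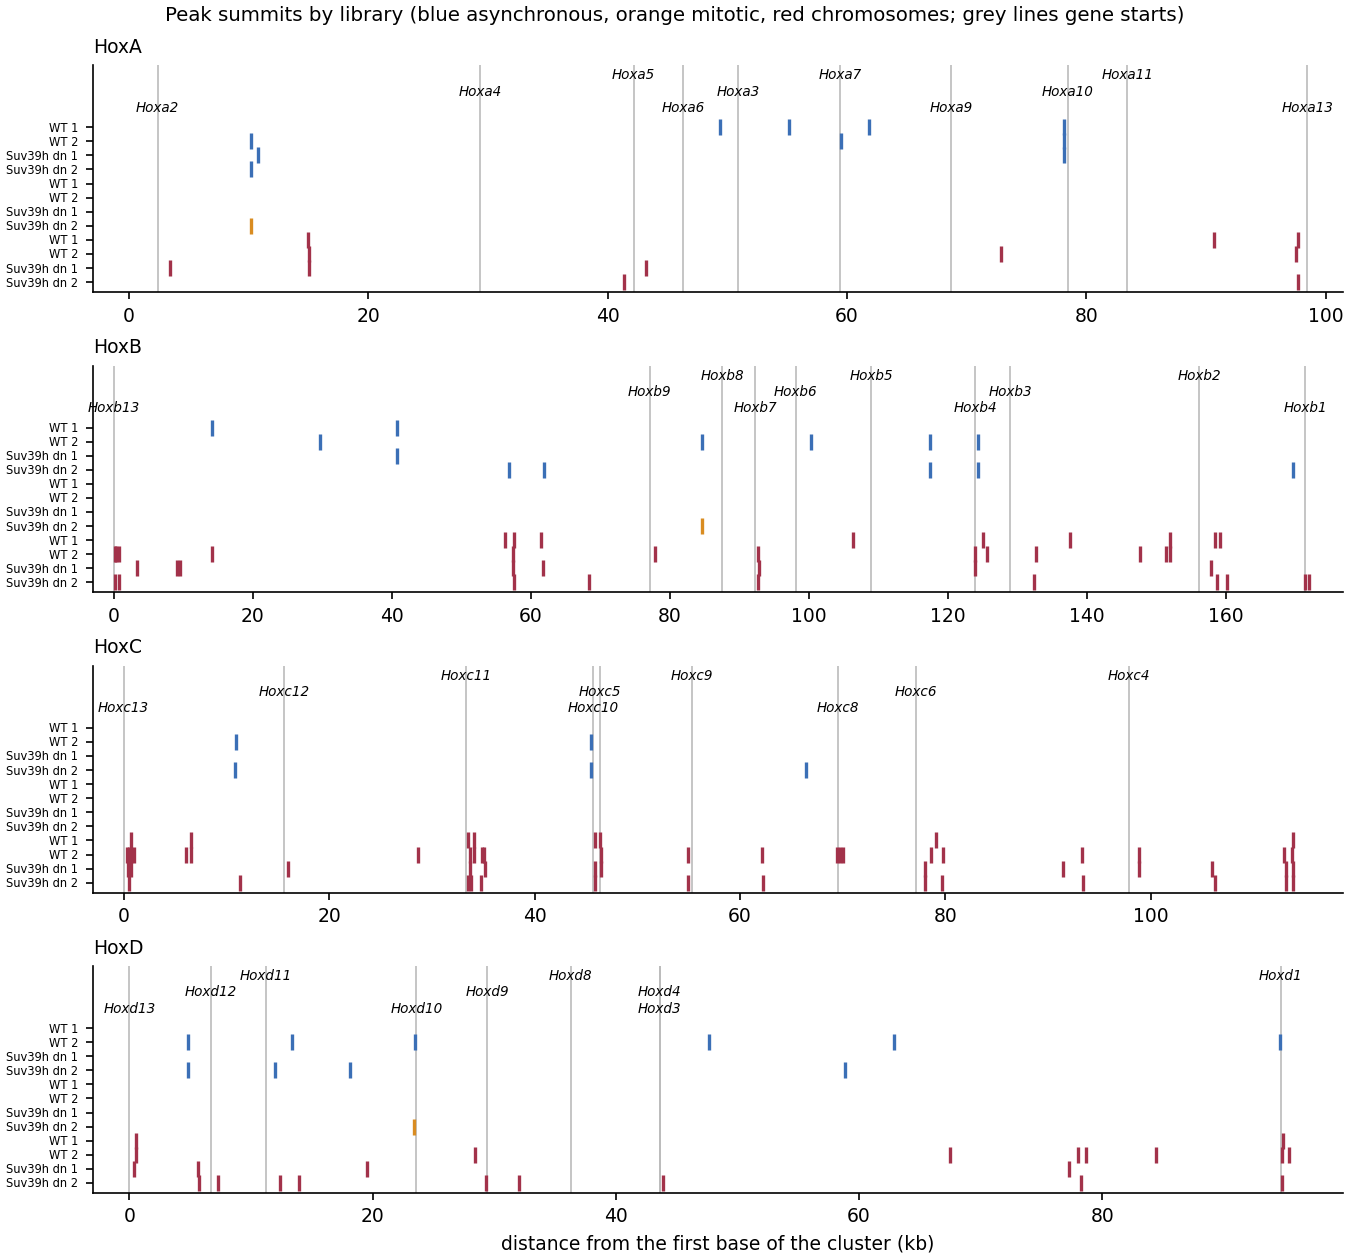
Summits inside the 4 clusters by library (rows, in the order asynchronous, mitotic, chromosomes) against the distance from the first base of the cluster (x, kb), with grey lines at the outermost annotated start of each Hox gene. In HoxC each chromosome library holds 8 to 23 summits and each asynchronous one 0 to 3.

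Near the starts, most summits of chromosomes lay downstream, while those of cells lay more often upstream, in large part through Hoxc13. In asynchronous cells 7 of 19 summits within 1 kb of a member's start were downstream of it, in mitotic cells 0 of 3 and in chromosomes 62 of 80. Hoxc13 alone gave 4 of the asynchronous summits and 2 of the mitotic ones, all upstream. The asynchronous summits of the other members lay on both sides in nearly equal parts. The second Suv39h dn asynchronous library, with 3 of 5 downstream, differed from the other cell libraries, none of which had more downstream than upstream. The median position was −85 bp in asynchronous cells, −256 bp in mitotic cells and 368 bp in chromosomes. All genes gave the same order with smaller distances, −43 and −59 bp in asynchronous and mitotic cells and 66 bp in chromosomes. Downstream summits made up 30.8%, 23.3% and 61.5% of all promoter summits, beside 36.8%, 0% and 77.5% at Hox starts. In each of the 4 chromosome libraries the Hox share, from 71.0% to 90.0%, was above the share at all genes, from 60.5% to 62.7%.

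**Figure D5:**
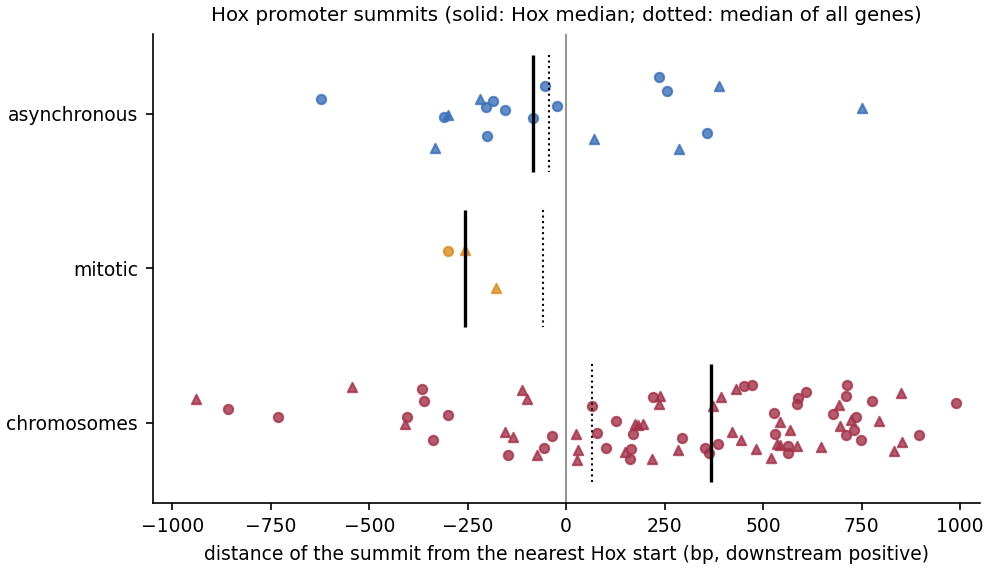
Distance of each summit from the nearest Hox start (x, bp, downstream positive) by preparation (rows), circles for WT and triangles for Suv39h dn, with a solid line at the Hox median and a dotted line at the median over all genes. Chromosome summits lie mostly downstream, with a Hox median of 368 bp.

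The chromosome summits of the clusters often lay in coding exons. Inside the clusters, 57 of 132 chromosome summits (43.2%) lay in an annotated coding exon, beside 3 of 38 in asynchronous cells (7.89%) and 1 of 3 in mitotic cells. By library the chromosome values were 54.5% and 44.7% for WT, 28.6% and 45.7% for Suv39h dn, and the asynchronous ones 16.7% and 6.25% for WT, 0% and 7.69% for Suv39h dn. Asynchronous cells and chromosomes did not overlap, and the 1 mitotic library with summits, at 33.3%, lay within the range of chromosomes. Over all peaks of the genome the share was 8.67% in chromosomes and 2.19% in asynchronous cells. Coding exons take up 7.28% of the bases of the clusters and 1.38% of the chromosomes analysed. Among summits of the clusters within 1 kb of a coding-gene start, 49 of 80 were in coding exons in chromosomes and 0 of 14 in asynchronous cells, beside 18.0% and 4.29% at all genes, where coding exons take up 17.8% of such bases in the clusters and 10.8% in the genome.

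In base composition the Hox summits lay nearer to promoter summits than to all peaks. Within 100 bp of the summit the median share of G and C was 58.5% in asynchronous cells and 60.9% in chromosomes, beside 60.7% and 61.7% at all promoter summits and 52.2% and 57.2% at all peaks. In each asynchronous library the Hox median, from 55.7% to 60.2%, was below the promoter medians, from 60.7% to 61.7%. The median number of CG dinucleotides was 10.5 and 11, beside 12 and 12 at all promoter summits and 4 and 4 at all peaks. Peaks at large thus had a higher share of G and C in chromosomes than in asynchronous cells, and the part of base composition in the difference of the Hox clusters was not tested. The CTCF core motif was found on either strand at 0 of 38 asynchronous and 0 of 132 chromosome summits of the clusters, beside 5.49% and 0.278% of all peaks. The YY1 motif AAGATGGC was found at 0 of both, beside 4.72% and 4.28% of all peaks. The Hox-Pbx motif TGATNNAT, a site bound by Hox proteins with their cofactors, was found at 0 asynchronous summits and 1 chromosome summit, beside 4.53% and 3.14% of all peaks. All promoter summits had lower shares than all peaks. In asynchronous cells and chromosomes these were 1.84% and 0.271% for CTCF, 2.62% and 1.92% for YY1 and 2.07% and 1.84% for Hox-Pbx. With so few cluster summits, the low counts cannot show a lack of these motifs.

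The peaks of the clusters were among the weaker ones of their lists in asynchronous cells. Their median percentile of fold in their own list was 26.5 in asynchronous cells, 45.7 in mitotic cells and 52.8 in chromosomes. At q at or under 1e-05, 9 of 38 asynchronous summits (23.7%) remained, beside 51.1% of all asynchronous peaks, and 17 of 132 chromosome summits (12.9%), beside 12.6% of all chromosome peaks. At this threshold no member kept a summit in 4 of 4 chromosome libraries, and the difference in share between chromosomes and asynchronous cells was 5.92 percentage points.

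Other genes of the clusters and related lists gave a frame for the members. Of 41 other annotated genes inside the clusters, 15 had a summit within 1 kb of a start in some library. Among the 3 protein-coding ones it was 2, beside 16329 of the 21755 coding genes of the genome. No such share was taken over non-coding genes, so the count of 15 has no baseline. Gm53 in HoxB was called in 4 chromosome libraries and 1 asynchronous one, Gm15050, antisense in HoxA, in 3 asynchronous libraries and 1 mitotic one, and Haglr, a long non-coding RNA gene of HoxD, in 3 chromosome libraries and 1 asynchronous one. Mir615, in an intron of Hoxc5, was called in 2 chromosome libraries. Strand is not part of a peak, so a summit between a member and an antisense gene cannot be given to either. Of 9 genes of Hox cofactors (Pbx, Meis and Pknox families), 5 to 9 had a summit in asynchronous cells, 0 to 4 in mitotic cells and 4 to 8 in chromosomes. Of 13 genes of Hox regulators, among them those of Polycomb and Trithorax group proteins, the numbers were 1 to 10, 0 to 8 and 7 to 9. Of 8 ParaHox and flanking homeobox genes they were 1 to 3, 0 and 2 to 6, and of 24 other developmental homeobox genes 7 to 16, 0 to 7 and 11 to 16. As mean shares, the other developmental homeobox genes had 49.0% in asynchronous cells and 53.1% in chromosomes, the ParaHox and flanking genes 28.1% and 37.5%, and the Hox genes 13.8% and 36.8%.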

How the data were processed

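ATAC-seq peak lists of 12 libraries were analysed, with groups taken from the sample labels. The authors trimmed reads with Trim Galore 0.4.4, aligned them to mm10 with Bowtie2 2.2.9, sorted them with SAMtools 1.2, removed duplicate and mitochondrial reads, shifted the ends, kept fragments under 100 bp and ran MACS2 on every library by itself. Each deposited peak carries a fold (a ratio of pileup to local background), a score, and a p-value and a q-value as −log10, and only the summit, the fold, and the −log10 values were used. The lowest −log10 q was 1.30. Since MACS2 computes the fold as pileup plus 1 over background plus 1 and the p-value as a Poisson tail, whole fragments at the summit and the background were recovered for 437289 of 437289 peaks with −log10 p under 60, within 0.002 on the −log10 scale. Read totals of the libraries were not used here, and the lowest local background is the measure of depth. It did not follow list length across preparations. It was 0.204 fragments in the first Suv39h dn mitotic library (1746 peaks) and 0.149 in the first WT asynchronous one (22344 peaks).

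Genes, transcripts and exons are those of GENCODE vM21 on GRCm38. A summit was assigned to a gene within 1 kb of any annotated start. Cluster counts were divided by the list length. Exact two-sided permutation tests permuted genotypes within preparations, with a smallest p of 0.00926, or preparations over 8 libraries in 70 arrangements, with Benjamini-Hochberg adjustment over 20292 features. Counts over members were given no p. Sequences within 100 bp of a summit were searched on both strands. The statistics were tested on simulated window counts with known changes. Python 3.11.15, numpy 2.4.6, pandas 2.3.3, scipy 1.17.1 and matplotlib 3.10.9 were used.

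Members named were those called in at least 10 or in 0 libraries, the leading member of each cluster, and those whose groups did not overlap, and regions were the 3 of each cluster called in most libraries. Hoxd10 and Hoxd13 were named after their values were seen. The members, gene lists and tests were chosen with earlier results of these data known. Libraries with the same replicate number in the labels deviated together in the windows, with Pearson r of 0.270, 0.347 and 0.142 between the genotypes in asynchronous cells, mitotic cells and chromosomes, so a replicate block was also fitted. The alternatives were a stricter q, equal list lengths, other distances, starts and cluster limits, other windows, the share of all genes as baseline, and leaving out each library.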

Additional observations from a re-analysis of the deposited data

How the results depend on the processing

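Most summits near Hox starts rested on few fragments, with a median of 7, and the part of depth in the counts was not tested. In chromosomes minus asynchronous cells the Hox share and the cluster rate kept their sign under each alternative run. The cause of the shifts below was not tested. At q at or under 1e-05, the Hox share rose by 5.92 percentage points from asynchronous cells and 9.87 from mitotic cells to chromosomes, 0 members kept a call in any non-overlap rule, and 0 clusters had an unadjusted p under 0.05 for chromosomes against asynchronous or mitotic cells. With the share of all genes taken off, the Hox share differed by 9.80 for chromosomes minus mitotic cells and by −12.5 for asynchronous minus mitotic cells. Equal list lengths within preparations left 0 members in both WT and neither Suv39h dn asynchronous library. They gave 4 clusters with an unadjusted p under 0.05 against mitotic cells and 3 (HoxB, HoxC and HoxD) against asynchronous cells. This setting cut asynchronous lists to 22344 peaks, mitotic ones to 1746 and chromosome ones to 44885. Mitotic lists so short can hold few cluster summits, so the count of 4 cannot be read as a stronger separation. Clusters extended by 10 kb gave 1 against mitotic cells. Members in all chromosome and no mitotic libraries numbered 2 within 500 bp and 3 with protein-coding transcripts. In both Suv39h dn and neither WT chromosome library, 1 (Hoxd3) was called within 500 bp and 2 (Hoxa5 and Hoxd12) within 2 kb, beside 1.6% and 1.78% of all genes. Over all 8 lists cut to equal length, chosen after seeing the data, the Hox share differed by 19.1 percentage points and the cluster rate by 5.15 per 10000.

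Differences that changed sign, none with an adjusted p under 0.05, were mainly those of genotype. For Suv39h dn minus WT these were 0.046 in HoxB and −0.48 in HoxD at q at or under 1e-05, −0.15 in HoxC with equal list lengths, and 0.0047 in HoxA and −0.047 in HoxC with extended clusters. For chromosomes minus asynchronous cells HoxA had 0.89 at q at or under 1e-05. Leaving out 1 library gave for the genotype −0.35 to 0.070 in HoxA, −0.21 to 0.086 in HoxB, −0.26 to 0.31 in HoxC and −0.023 to 0.42 in HoxD. For chromosomes minus asynchronous cells HoxA ran from −0.53 to 0.028, turning without the first WT asynchronous library, and for asynchronous minus mitotic cells HoxD ran from −0.0091 to 0.39, turning without the second.

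With 1 library left out, an arm of 1 library meets a non-overlap rule more easily. Members in both WT and neither Suv39h dn library then numbered 1 to 4 in asynchronous cells and 0 to 3 in chromosomes, where the highest stood beside 3.68% and 8.13% of all genes. In both Suv39h dn and neither WT they numbered 0 to 1 in asynchronous cells, 0 to 1 in mitotic cells and 0 to 6 in chromosomes, the highest beside 6.85%, 8% and 4.6% of all genes. The 4 arose without the first WT asynchronous library, the 3 without the first WT chromosome library, and the highest of each Suv39h dn range without the first Suv39h dn library of that preparation. Members in all chromosome and no asynchronous libraries numbered 3 to 5, the 5 without the first WT chromosome library, and clusters with an unadjusted p under 0.05 in that comparison 1 to 2. The replicate block gave the same differences, 0 percentage points in the Hox share and 0.03 per 10000 in the cluster rate, with exact permutation p-values for the clusters from 0.375 to 0.8125, and changed no call.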
